A study of Mus musculus with 8 samples.

Results

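The endoplasmic reticulum (ER) folds secreted and membrane proteins, and unfolded protein that builds up there sets off the unfolded protein response. Its sensors sit in the ER membrane: IRE1 splices the mRNA of the transcription factor XBP1, ATF6 is cut to release a transcription factor, and PERK phosphorylates the translation factor eIF2α, which favours translation of ATF4. Together they drive genes for chaperones, for disulphide bond formation, for the removal of misfolded protein by ER-associated degradation (ERAD) and for amino acid supply, and in macrophages the pathway is known for its links to lipid loading and secretion. The genes described here are 34 members of this response, chosen by exact gene symbol in the array annotation and followed in adipose tissue macrophages (ATMs) from obese and lean mice. The list was selected with the measured difference between the diets known, so that difference is given as a description of the members, and the counts of members past a threshold in the fit over all genes are listed without drawing anything from them.

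RNA was measured on 8 arrays, 4 from ATMs of mice on a high-fat diet (HFD) and 4 from ATMs of mice on a low-fat diet (LFD), with 1 array of each diet in each of 4 experiments. All mice were male C57Bl/6, and each array held RNA from a pool of mice, so differences between single mice were not measured. The sample titles name lard for both the HFD and the LFD. Fat supplied 45% of the energy of the HFD in experiments 1 and 3, 60% in experiments 2 and 4, and 10% of the energy of every LFD. The diets lasted 16 weeks in experiments 1 and 3, 15 weeks in experiment 2 and 10 weeks in experiment 4. ATMs were taken from the stromal vascular fraction of epididymal fat with magnetic beads against the surface protein of the macrophage gene Adgre1. Values are log2 expression levels, in which a difference of 1 is a doubling, and the median level of an array lay between 4.25 and 4.39. In all, 18820 genes had a probe set with 1 gene symbol, and 32 of the 34 members were among them. The exceptions were Ddit3, which encodes the transcription factor CHOP and shared its probe set with Mars1, and the disulphide isomerase gene Pdia4, which shared its probe set with Mir704, and neither is reported. Of the 32 measured members, 31 lay under 4.32, the median of all values and the limit used here for a dim signal, on at most 4 arrays. Derl3 lay under it on 6.

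The macrophage identity of the pools differed between experiments. Adgre1 had a level of 6.54 in LFD and 8.58 in HFD in experiment 1 and of 9.95 to 10.95 on the other 6 arrays. The mean level of 14 macrophage genes was 7.71 in LFD and 8.93 in HFD in experiment 1 and 10.21 to 10.87 elsewhere, whereas that of 18 endothelial genes was 10.66 and 10.33 in experiment 1 and 5.88 to 9.16 elsewhere. In bulk RNA, fewer cells of a type and less RNA per cell cannot be told apart. Endothelial genes were lowest in LFD of experiment 3, at 5.88, where 12 fibroblast genes were also lowest, at 6.10, against 7.89 and 7.48 in HFD of that experiment.

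**Figure D1:**
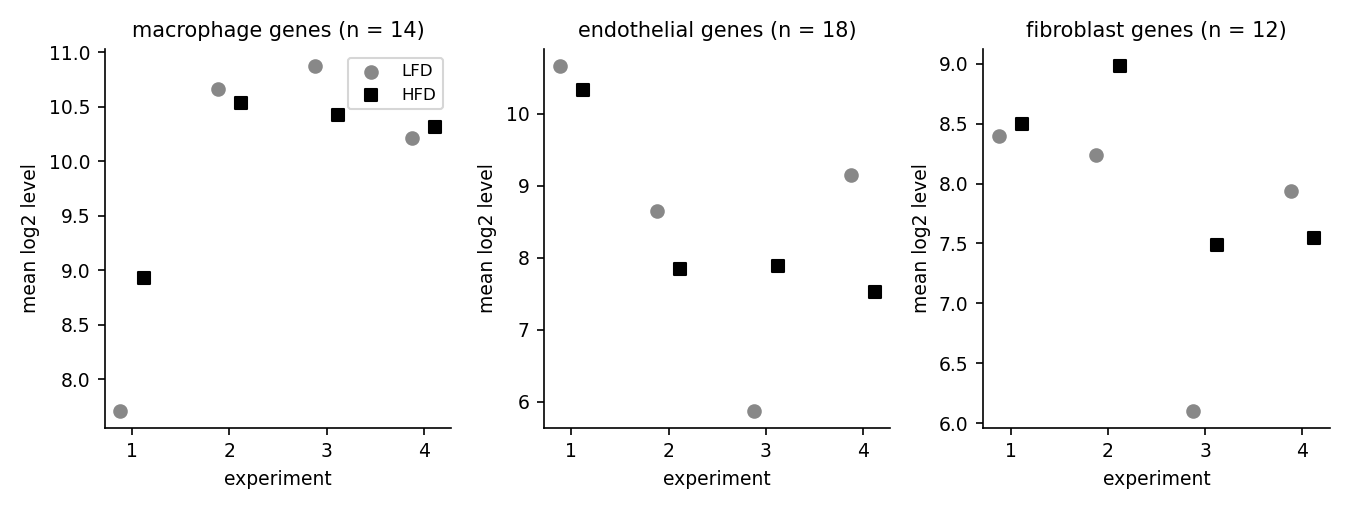
Mean log2 level of macrophage, endothelial and fibroblast genes (vertical axes, which differ between panels) in each LFD (circles) and HFD (squares) array of experiments 1 to 4. Macrophage genes are lowest in both arrays of experiment 1, at 7.71 and 8.93, and endothelial genes are lowest in the LFD array of experiment 3, at 5.88.

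Many members are known targets of ATF6 and XBP1 through a promoter sequence called the ER stress element, and the matches are shown first because they are independent of the arrays. RefSeq promoter sequences (GRCm38.p6, 250 bases before to 50 bases after the start of the gene) were given for 30 of the 34 members. The ER stress element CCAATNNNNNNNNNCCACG, searched on both strands, was present in the promoters of 9 of these 30 members (30%) and in 37 of 27025 genes of the whole table (0.137%). Because known targets of such elements are among the members, the shares of this and the other motifs are descriptions, and nothing is drawn from them. A match is a description of the letters in this window and shows no binding. The 10 matched sites are printed on the strand that reads CCAAT first, with the defined letters in capitals and the free letters in lower case, because they show how the spacer differs between genes that share the outer boxes.
Hspa5: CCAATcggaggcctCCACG
Hsp90b1, distal site: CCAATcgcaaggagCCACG
Hsp90b1, proximal site: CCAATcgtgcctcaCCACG
Calr: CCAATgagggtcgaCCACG
Canx: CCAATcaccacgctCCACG
Dnajc3: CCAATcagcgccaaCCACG
Pdia6: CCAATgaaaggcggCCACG
Creld2: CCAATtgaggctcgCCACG
Syvn1: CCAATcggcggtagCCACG
Derl3: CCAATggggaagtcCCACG

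The shorter form, ER stress element II (ATTGG, any 1 base, CCACG), matched in 2 of the 30 members (6.67%) and in 12 of all genes (0.0444%), and its outer letters are those of the first element with 1 box turned. The members were Herpud1 and Dnajb11.
Herpud1: ATTGGgCCACG
Dnajb11: ATTGGcCCACG

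The amino acid response core TGATGNAA, through which ATF4 is known to act, matched in Asns, Chac1, Trib3 and Herpud1, which was 4 of 30 members (13.3%) against 1219 of all genes (4.51%). The UPR element TGACGTGG matched in 0 of 30 members and in 193 of all genes (0.714%). No 2 of the matched sites overlapped within a promoter. The ER stress element of Hspa5 lay closest to the start after that of Syvn1, from -65 to -47, and that of Syvn1 lay from -44 to -26, with positions counted from the RefSeq start. Hsp90b1 held its sites at -212 to -194 and at -107 to -89, on opposite strands. Herpud1 combined ER stress element II at -52 to -42 with the amino acid response core at -112 to -105.

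**Figure D2:**
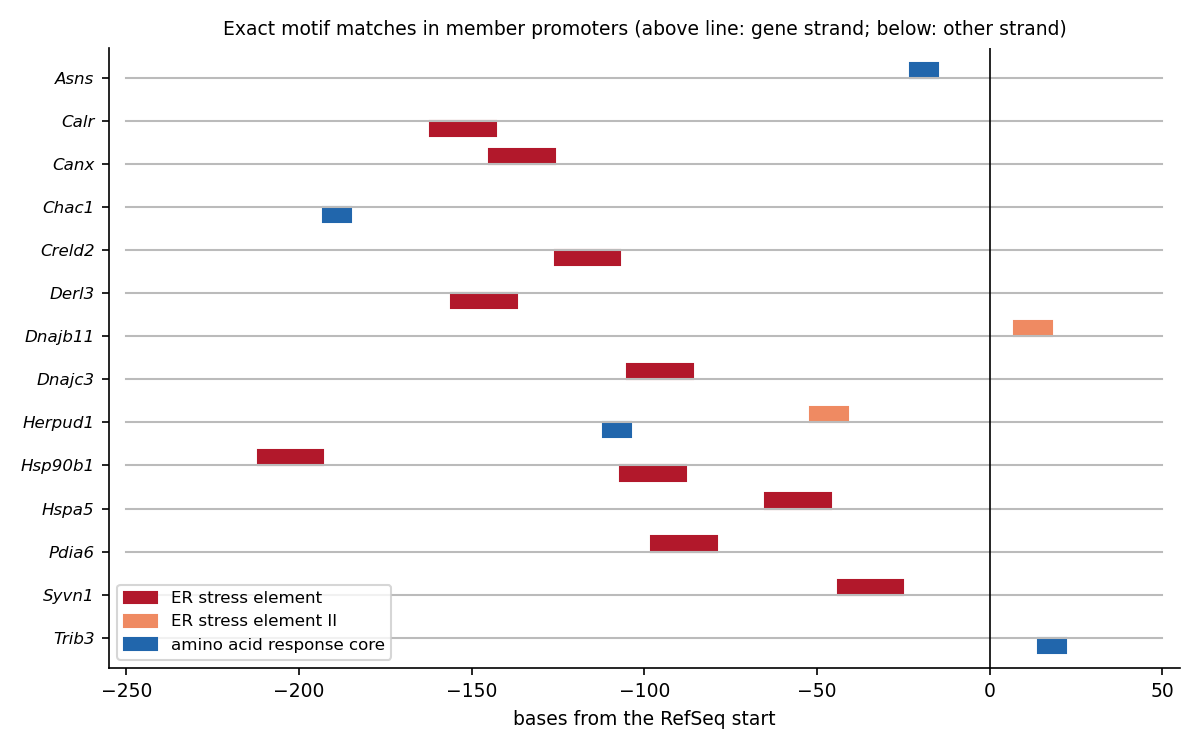
Exact motif matches (coloured boxes) in the promoters of 14 members, by distance in bases from the RefSeq start (horizontal axis), with boxes above a line on the strand of the gene and below it on the other strand. The ER stress elements all lie before the start, from -212 to -26, and ER stress element II of Dnajb11 lies after it, from 7 to 17.

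The 250 bases before the start are shown for a set of 4 members that carry an element and whose array values differed in direction: Hspa5, the master ER chaperone, Calr, which was higher in HFD in every experiment, and Derl3 and Herpud1, which were lower in every experiment. The element is in capitals, and each sequence runs 5′ to 3′ on the strand of the gene.
Hspa5 (chr2:34771840-34772089, plus strand): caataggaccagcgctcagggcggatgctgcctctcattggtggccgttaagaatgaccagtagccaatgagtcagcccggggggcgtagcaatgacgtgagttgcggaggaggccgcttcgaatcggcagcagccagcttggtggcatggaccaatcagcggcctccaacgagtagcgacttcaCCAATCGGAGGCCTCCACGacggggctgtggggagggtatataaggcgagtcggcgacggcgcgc
Calr (chr8:84846932-84847181, minus strand): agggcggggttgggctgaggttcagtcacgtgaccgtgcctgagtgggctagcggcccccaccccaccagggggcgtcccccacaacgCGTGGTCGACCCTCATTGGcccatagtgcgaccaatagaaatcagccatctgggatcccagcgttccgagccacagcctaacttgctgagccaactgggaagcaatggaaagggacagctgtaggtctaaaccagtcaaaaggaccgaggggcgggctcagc
Derl3 (chr10:75893148-75893397, plus strand): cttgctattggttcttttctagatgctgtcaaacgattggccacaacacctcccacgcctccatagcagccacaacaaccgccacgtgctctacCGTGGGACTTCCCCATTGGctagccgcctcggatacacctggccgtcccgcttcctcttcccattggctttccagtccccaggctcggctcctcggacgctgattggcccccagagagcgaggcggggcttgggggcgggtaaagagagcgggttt
Herpud1 (chr8:94386179-94386428, plus strand): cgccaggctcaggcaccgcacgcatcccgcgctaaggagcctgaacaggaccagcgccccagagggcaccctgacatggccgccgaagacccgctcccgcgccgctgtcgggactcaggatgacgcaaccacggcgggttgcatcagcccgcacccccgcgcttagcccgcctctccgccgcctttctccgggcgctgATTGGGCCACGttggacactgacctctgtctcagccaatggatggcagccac

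The sensors differed in direction. Ern1, which encodes IRE1, had levels of 6.90, 7.41, 7.68 and 7.26 in LFD and 7.50, 7.43, 7.36 and 7.70 in HFD of experiments 1 to 4. HFD was above LFD in experiments 1, 2 and 4 and below it in experiment 3, and the mean difference was 0.19 ± 0.17 (SE, n = 4 arrays per diet, limma). Errors after ± are SEs of the fit without the experiment as a block unless the block is named. Atf6 had levels of 8.26, 8.90, 9.46 and 8.84 in LFD and 8.33, 8.92, 9.05 and 8.87 in HFD, which differed by under 0.1 in every experiment except the third, where HFD was lower by 0.41. Eif2ak3, which encodes PERK, had levels of 6.97, 6.95, 7.22 and 6.998 in LFD and 6.75, 6.94, 6.77 and 6.71 in HFD. Every HFD array lay below every LFD array for Eif2ak3, although in experiment 2 the gap was only 0.01, and the mean difference was -0.24 ± 0.09 (SE, n = 4).

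The transcription factors under the sensors lay near or below the lean level. Xbp1 had levels of 8.85, 8.88, 8.89 and 8.87 in LFD, the tightest group among the members with an SD of 0.02, and of 8.39, 8.94, 8.63 and 8.65 in HFD. Its HFD arrays were lower in experiments 1, 3 and 4 and higher in experiment 2, with a mean difference of -0.22 ± 0.12 (SE, n = 4). The array gives 1 level for the gene and no measure of its splicing. Atf4 differed by -0.10 ± 0.12 (SE, n = 4), with HFD again higher in experiment 2 and lower in the others. Control of ATF4 by PERK acts on translation, which an mRNA level does not show.

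Among the luminal chaperones, Calr, which encodes the calcium-binding lectin chaperone calreticulin, separated the diets. Its levels were 10.33, 10.58, 10.71 and 10.67 in LFD and 10.74, 10.82, 10.93 and 10.86 in HFD. Every HFD array lay above every LFD array, and the mean difference was 0.26 ± 0.10 (SE, n = 4), a 1.20-fold difference. Its membrane-bound relative Canx had a difference of 0.14 ± 0.17, with HFD lower in experiment 3. Hspa5, which encodes BiP, the chaperone that holds the sensors inactive, had levels of 10.52, 11.04, 11.18 and 10.89 in LFD and 10.80, 11.20, 10.92 and 11.19 in HFD. The groups overlapped, HFD was higher in experiments 1, 2 and 4 and lower in experiment 3, and the mean difference was 0.12 ± 0.16, with an SE of 0.12 with the block. Hsp90b1 (GRP94) differed by 0.13 ± 0.13 with the same order of signs, and Hyou1, a large ER chaperone that also acts as an exchange factor for BiP, differed by 0.24 ± 0.12, with HFD lower only in experiment 4.

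The co-chaperones, J-domain proteins and partners that hand substrates to BiP, went in both directions. Dnajb11 had levels of 6.89, 7.02, 7.30 and 7.23 in LFD and 7.24, 7.23, 7.48 and 7.63 in HFD, higher in each experiment although the groups overlapped. Dnajb9, which encodes ERdj4, a target of XBP1, had levels of 8.10, 9.28, 8.90 and 8.92 in LFD and 8.07, 8.78, 8.36 and 8.81 in HFD. It was lower in each experiment, by 0.51 and 0.54 in experiments 2 and 3 and by 0.04 and 0.10 in experiments 1 and 4. Dnajc3, the inhibitor of PERK known as p58IPK, differed by -0.19 ± 0.11 (SE, n = 4), lower in 3 of 4 experiments. Sdf2l1, which works with Dnajb11, had the widest range in LFD of the members, from 4.94 in experiment 1 to 7.74 in experiment 3, and its difference was 0.53 with an SE of 0.61 without and 0.26 with the experiment as a block.

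The disulphide isomerases and the secreted ER stress proteins differed little. P4hb, the gene of protein disulphide isomerase itself, was higher in HFD in each experiment, with levels of 9.23, 9.26, 9.44 and 9.32 in LFD and 9.42, 9.49, 9.56 and 9.44 in HFD. The differences of P4hb ran from 0.11 to 0.23 and the groups overlapped. Pdia6 differed by 0.14 ± 0.14 and Pdia3 by -0.01 ± 0.11 (SE, n = 4). Creld2, an ER stress-inducible secreted protein, had levels of 6.98, 7.24, 7.28 and 7.22 in LFD and 7.29, 7.33, 7.35 and 7.36 in HFD. Its HFD arrays spanned less than 0.1 and all lay above the LFD arrays. Manf, a secreted factor that protects cells under ER stress, differed by 0.08 ± 0.21, with HFD lower in experiment 3.

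ERAD genes held the members farthest apart after Wfs1. Herpud1, which encodes HERP, an ER membrane protein that assembles the degradation complex and is known as a sensitive target of the response, had levels of 8.90, 9.49, 9.74 and 9.46 in LFD and 8.74, 8.89, 8.68 and 8.75 in HFD. Every HFD array lay below every LFD array, and the differences were -0.15, -0.61, -1.07 and -0.71 in experiments 1 to 4, with a mean of -0.63 ± 0.17 (SE, n = 4) or 0.644 of the LFD level. The HFD arrays of Herpud1 lay close together, and the LFD arrays were spread wider, with SDs of 0.09 and 0.36. Of the single markers of other immune cells given beside Derl3, Siglech, Jchain and Ighm were also lower in HFD in each experiment. Tnfrsf17 and Mzb1 were not. The mean levels of the dendritic cell, B and plasma cell, and T and NK cell genes were also lower in each experiment. That of the neutrophil genes was higher in HFD in experiment 1. The part of these lists and markers in the difference of Herpud1 was not tested.

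Derl3, an ERAD channel component known from secretory cells, had levels of 3.90, 4.24, 4.97 and 5.16 in LFD and 3.78, 3.97, 4.08 and 4.22 in HFD. HFD was lower in each experiment, the groups overlapped, and the signal was dim. The mean difference of Derl3 was -0.55 ± 0.28 (SE, n = 4), made up of -0.89 and -0.93 in experiments 3 and 4 and -0.12 and -0.26 in experiments 1 and 2. Levels of markers of other immune cells are given beside it. The mean of 8 dendritic cell genes ranged from 4.07 to 4.82 in LFD and from 4.06 to 4.35 in HFD, with 4 or 5 of the 8 under the dim limit on each array. Corresponding ranges were 4.39 to 4.90 in LFD and 4.31 to 4.76 in HFD for 15 B and plasma cell genes, of which 7 to 9 were dim, and 3.79 to 3.88 in LFD and 3.56 to 3.69 in HFD for 12 T and NK cell genes, of which 8 to 11 were dim. The means of these lists were all lower in HFD than in LFD in each experiment. For the T and NK cell genes every HFD array lay below every LFD array. The gap between the diets was largest in experiment 1 for the T and NK cell genes, at 3.56 in HFD against 3.88 in LFD. It was smallest there for the dendritic cell genes, at 4.06 against 4.07. The same held for the B and plasma cell genes, at 4.31 against 4.39. The mean of 9 neutrophil genes, 8 of them dim on each array, ranged from 2.96 to 3.475 in LFD and from 3.06 to 3.28 in HFD. It was higher in HFD in experiment 1 and lower in the others. Some single markers, picked out after their values were seen, differed more than the list means. Siglech, a plasmacytoid dendritic cell gene, had levels of 4.68, 7.30, 6.36 and 6.26 in LFD and 4.09, 4.63, 4.16 and 4.84 in HFD, lower in each experiment. Tnfrsf17, a plasma cell receptor gene, had levels of 3.61, 6.85, 6.36 and 5.48 in LFD and 3.68, 5.24, 4.98 and 5.76 in HFD, lower in experiments 2 and 3 only. Jchain, the gene of the immunoglobulin joining chain, had levels of 4.92, 5.30, 4.53 and 6.03 in LFD and 4.07, 5.24, 3.88 and 4.37 in HFD, lower in each experiment. Ighm, of the same list, was also lower in each experiment. Mzb1, another gene of that list, was dim on every array and was higher in HFD in experiments 1, 2 and 4. Its levels were 3.16, 3.27, 3.50 and 3.25 in LFD and 3.19, 3.37, 3.27 and 3.68 in HFD. The part of these lists and markers in the difference of Derl3 was not tested.

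Its relative Derl2 went the other way, with levels of 5.66, 6.28, 6.53 and 6.07 in LFD and 6.05, 6.61, 6.66 and 6.28 in HFD, higher in each experiment with overlapping groups. Sel1l, the scaffold of the HRD1 ubiquitin ligase, had levels of 8.17, 8.07, 8.42 and 8.30 in LFD and 8.35, 8.55, 8.66 and 8.64 in HFD. Sel1l was higher in each experiment and differed by 0.31 ± 0.11 (SE, n = 4), and only HFD of experiment 1 lay among the LFD arrays. The ligase gene itself, Syvn1, differed by 0.06 ± 0.07.

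Edem1, a lectin that delivers misfolded glycoproteins to ERAD, had levels of 7.65, 8.53, 8.86 and 8.71 in LFD and 8.22, 8.92, 9.04 and 8.91 in HFD, higher in each experiment by 0.18 to 0.56. Both arrays of experiment 1 lay below the other 6 for Edem1. Edem2 and Derl1 differed by 0.14 and -0.10, with HFD lower in experiment 3 for both.

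Wfs1 stood apart. It encodes wolframin, an ER membrane glycoprotein that acts in ER calcium balance and restrains ATF6, and its loss causes Wolfram syndrome. Its levels were 6.15, 6.35, 6.27 and 7.85 in LFD and 8.01, 8.03, 8.91 and 9.67 in HFD. Every HFD array lay above every LFD array, and LFD of experiment 4 was close to HFD of experiments 1 and 2. The differences of Wfs1 were 1.86, 1.68, 2.64 and 1.82 in experiments 1 to 4, with a mean of 2.00 ± 0.50 (SE, n = 4), a 4.01-fold difference. Its SE was 0.50 without and 0.17 with the experiment as a block, and the arrays of experiment 4 were the highest of both diets. The second largest difference in size among the 32 members was that of Herpud1.

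The outputs of the PERK arm showed no common direction. Ppp1r15a (GADD34), which returns eIF2α to its unphosphorylated state, differed by 0.28 ± 0.37 (SE, n = 4). Trib3, a pseudokinase induced by ATF4 and CHOP, differed by 0.01 ± 0.29, and Chac1, which breaks down glutathione, by -0.09 ± 0.13. Asns, asparagine synthetase, had levels of 7.81, 5.76, 5.30 and 6.87 in LFD and 7.34, 6.12, 6.47 and 6.24 in HFD. HFD was lower in experiments 1 and 4 and higher in experiments 2 and 3, and the SD of the 4 differences, 0.83, was the largest of the members.

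**Figure D3:**
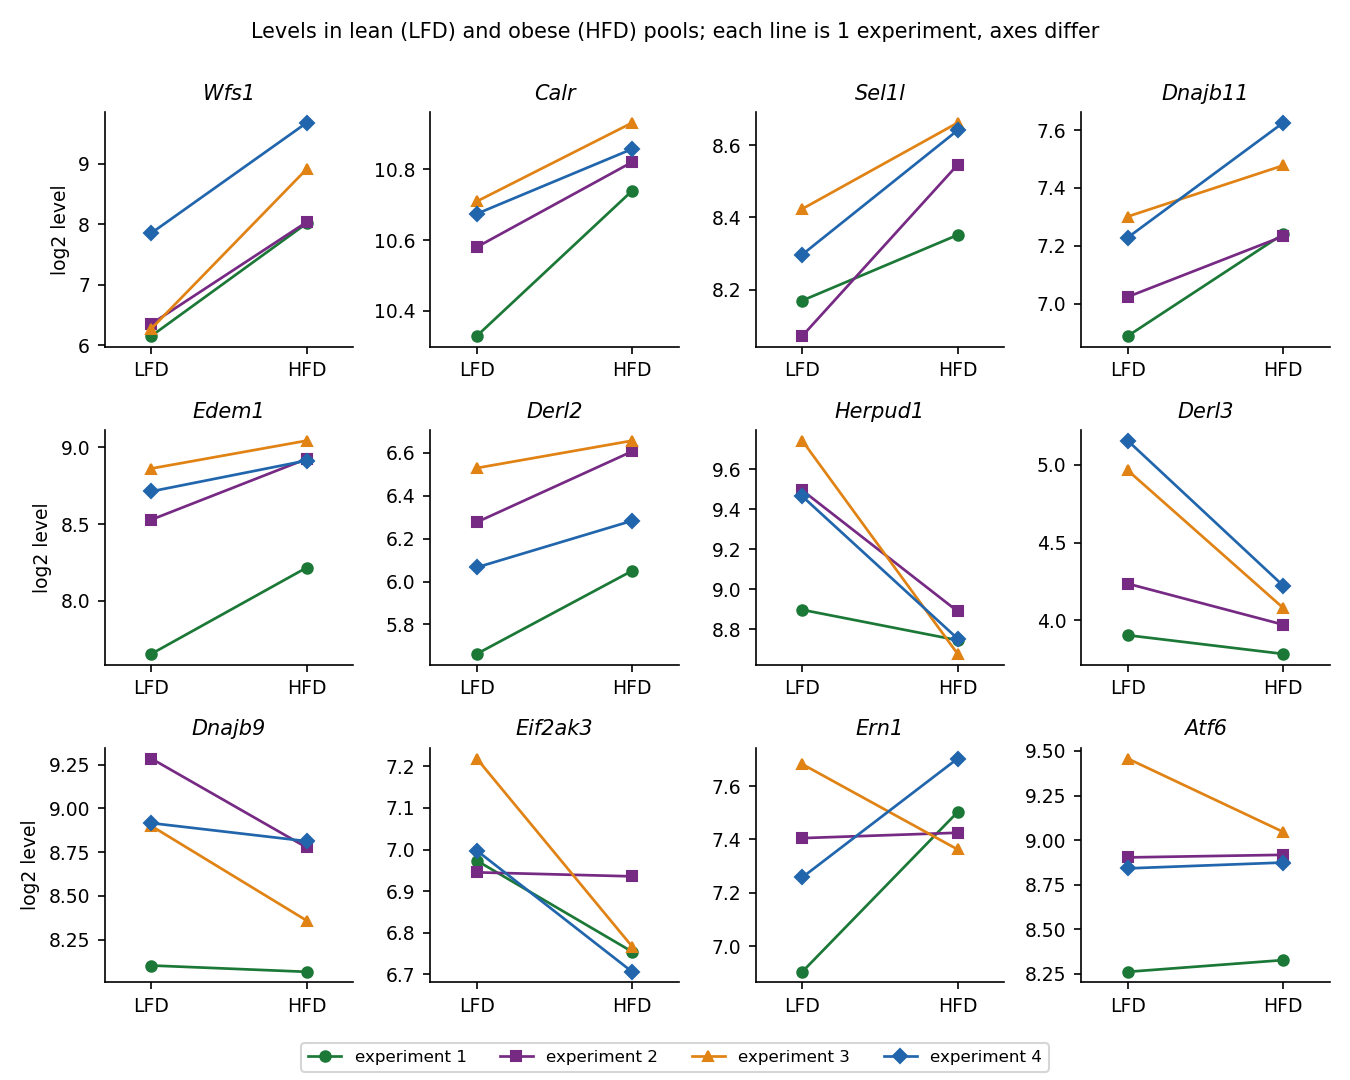
Log2 level (vertical axes, which differ between panels) of 12 members in the LFD and HFD array of each experiment, with a line joining the arrays of 1 experiment. Lines of Wfs1, Calr, Sel1l, Dnajb11, Edem1 and Derl2 all go up and those of Herpud1, Derl3, Dnajb9 and Eif2ak3 all go down, whereas those of the sensors Ern1 and Atf6 go both ways.

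Over the 32 measured members the median difference was 0.13, with 21 above and 11 below 0, against 0.00 over all genes tested. The median of the members was 0.21, 0.19, -0.13 and 0.12 in experiments 1 to 4, so experiment 3 alone was below 0. With each array centred on its own median, which moves the median difference of all genes by 0.05, the members' median was 0.07, with 20 above and 12 below 0. It was 0.09 without experiment 1 and 0.01 without LFD of experiment 1. By arm, the median was 0.13 for 11 members placed under ATF6, 0.14 for 11 under IRE1 and -0.04 for 6 under PERK, and 0.15 for the 4 placed under none. The 9 members with an ER stress element had a median of 0.13, with 7 above and 2 below 0. These medians are descriptions and carry no test of one arm against another. With the experiment as a block the SE of the difference was smaller for members whose level shifted between experiments, at 0.10 for Edem1, 0.08 for Derl2, 0.12 for Dnajb9, 0.17 for Derl3 and 0.15 for Ppp1r15a.

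The counts of members were read against those of all 18820 genes, and because the list was selected with this contrast known, nothing is drawn from them. No member passed an adjusted p of 0.05 in limma, as was the case for all genes (0%), and 0 passed with the experiment as a block (0%). The smallest limma adjusted p over all genes was 0.982 without the block and 0.0508 with it. At an unadjusted p under 0.05, Calr, Sel1l and Wfs1 were higher, 3 of 32 against 3.30% of all genes, and Eif2ak3 and Herpud1 were lower, 2 of 32 against 1.51%. With the experiment as a block these counts were 6 higher, against 7.95%, adding Derl2, Dnajb11 and Edem1, and 2 lower, against 4.16%, Derl3 and Herpud1. The methods' t-test gave 4 higher and 2 lower before and 0 after adjustment. HFD was above LFD in all 4 experiments for 8 members, Calr, Creld2, Derl2, Dnajb11, Edem1, P4hb, Sel1l and Wfs1, against 11.0% of all genes. It was below LFD in all 4 for Derl3, Dnajb9, Eif2ak3 and Herpud1, against 7.43%. With each array centred on its median these counts were 5 above and 6 below. Every HFD array lay above every LFD array for Calr, Creld2 and Wfs1, against 1.19% of all genes, and below for Eif2ak3 and Herpud1, against 0.680%. HFD was above LFD in experiments 1, 2 and 4 for 18 members, against 19.4%, and 10 of these were below LFD in experiment 3. Endothelial and fibroblast genes in experiment 3 were higher in HFD than in LFD, at 7.89 against 5.88 and 7.48 against 6.10. In experiments 1, 2 and 4 endothelial genes were lower in HFD, at 10.33 against 10.66, 7.84 against 8.65 and 7.53 against 9.16. Fibroblast genes were also higher in HFD in experiments 1 and 2, so their rise was not particular to experiment 3, and they were lower in experiment 4. Macrophage genes were higher in HFD in experiments 1 and 4 and lower in experiments 2 and 3. Their levels were 8.93 in HFD against 7.71 in LFD in experiment 1 and 10.42 against 10.87 in experiment 3. The part of these levels in the diet differences of any experiment was not tested.

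**Figure D4:**
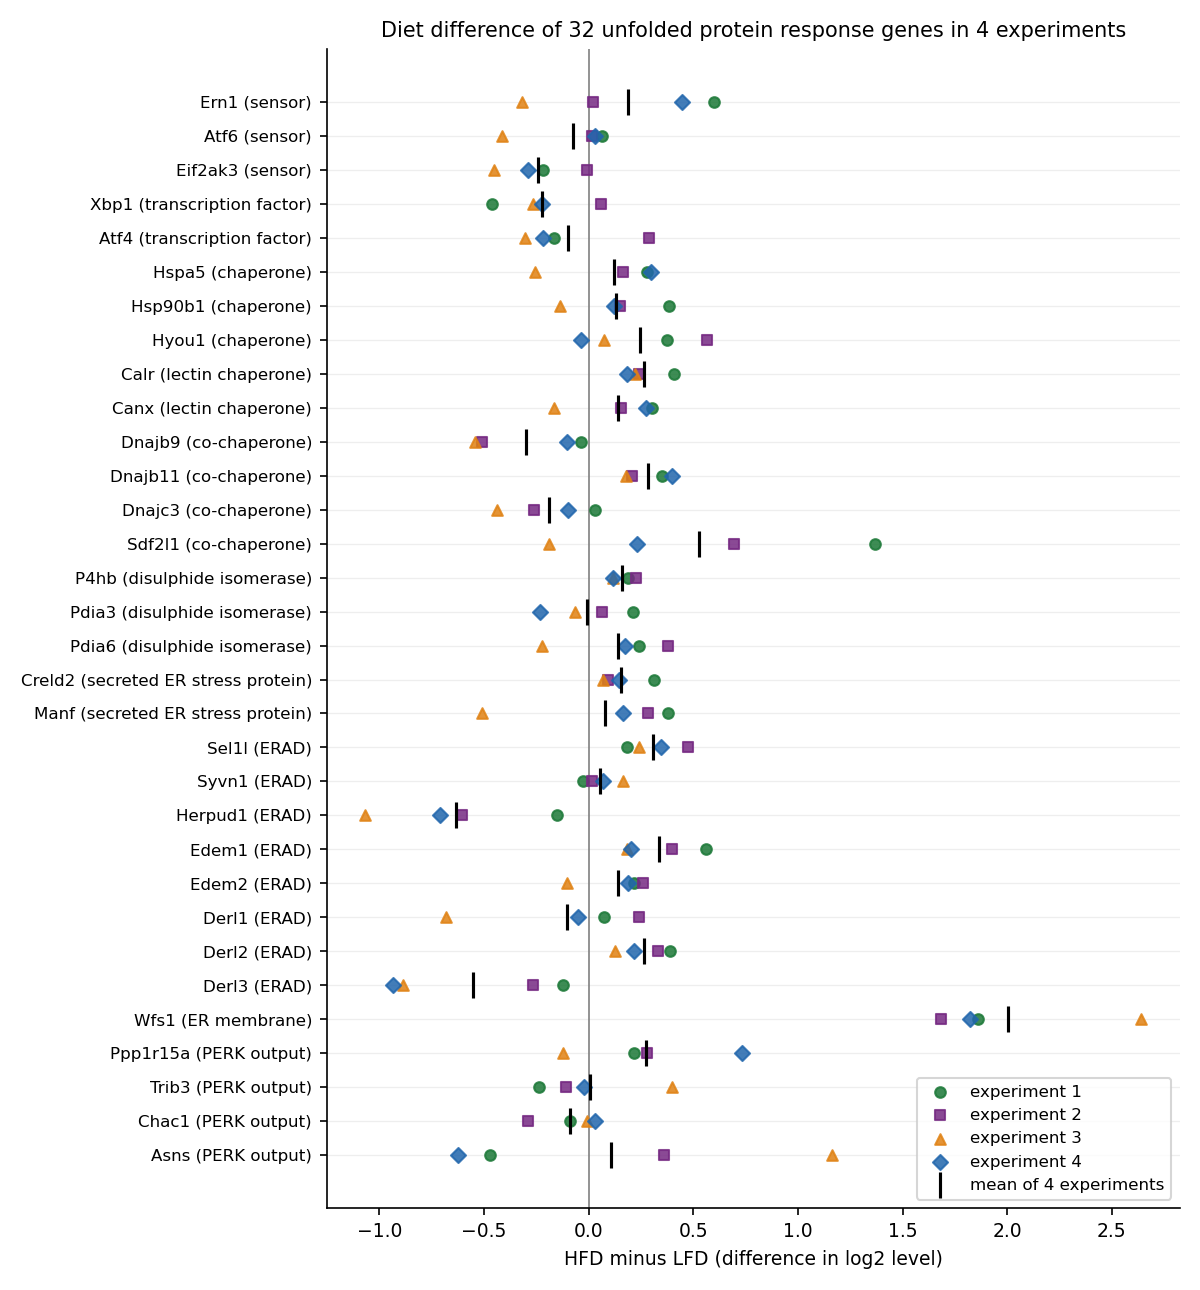
Difference between HFD and LFD in log2 level (horizontal axis) of the 32 measured members, grouped by role, with 1 symbol per experiment and a bar at the mean. Wfs1 lies far to the right at 1.68 to 2.64, Herpud1 and Derl3 lie to the left in each experiment, and the triangles of experiment 3 lie left of the other symbols for most chaperones.

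Which members differed between the experiments was not used to choose them and could be tested, with diet as a covariate. In limma's F test, Edem1 (adjusted p = 0.0361), Wfs1 (adjusted p = 0.0391) and Derl2 (adjusted p = 0.0497) differed between experiments, 3 of 32 members against 8.96% of all genes, so the share is near that of all genes. Mean levels of Edem1 were 7.94, 8.73, 8.95 and 8.81 in experiments 1 to 4, lowest in the first. Those of Derl2 were 5.86, 6.44, 6.59 and 6.17, also lowest in experiment 1, and those of Wfs1 were 7.08, 7.19, 7.59 and 8.76, highest in experiment 4. Hyou1 had the largest adjusted p of the members, 0.83 in the same limma fit, with levels of 7.23, 7.27, 7.58 and 7.58 in LFD and 7.60, 7.83, 7.65 and 7.54 in HFD. The 3 calls were lost without experiment 1 and also when LFD or HFD of experiment 1, 2 or 4 was left out, which gave 0 members each, while 4 members passed without LFD of experiment 3 and 7 without HFD of experiment 3.

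Experiment 1 had the lowest mean level of the 4 experiments for 25 of the 32 members, against 37.9% of all genes. The level of experiment 1 minus the mean of the others was -1.73 for Sdf2l1, -1.11 for Ppp1r15a and -0.90 for Edem1, and none of these sizes was tested on its own. Its level was the highest for Asns, Trib3 and Chac1, 3 members against 29.2% of all genes. The promoters of all 3 hold the amino acid response core, which 4.51% of all genes hold. So does that of Herpud1, which was lowest in experiment 1. The part of this motif in the levels was not tested. Trib3 and Chac1 had weak signals, each under the dim limit on 3 arrays. Asns had a mean level of 7.57 in experiment 1 and of 6.13 over the others, and Trib3 had 5.15 against 4.43. The arrays of experiment 1 were those with the lowest macrophage and the highest endothelial levels given above, and the part of that in the members' levels was not tested.

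**Figure D5:**
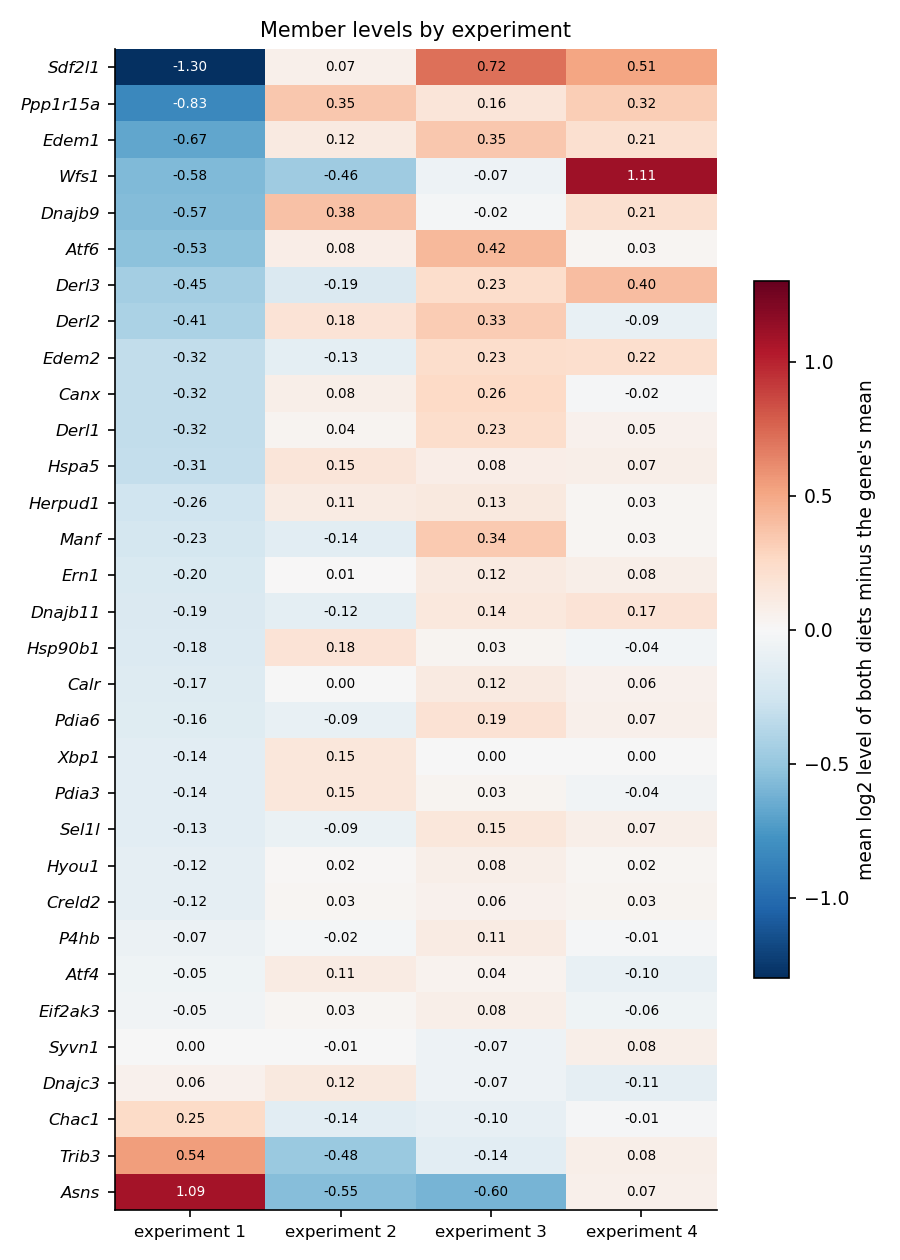
Mean log2 level of both diets in each experiment minus the mean of the gene over the 4 experiments, printed and coloured for each of the 32 measured members (blue, below the mean of the gene, and red, above it). Most members are lowest in experiment 1, with Sdf2l1 at the top, and Chac1, Trib3 and Asns at the bottom are highest there.

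The diet difference was also set beside the fat content of the HFD, as a description. For Ppp1r15a the difference between HFD and LFD was larger by 0.46 ± 0.25 (SE, experiment as a block) in the 60% than in the 45% experiments, and for Wfs1 it was smaller by 0.50 ± 0.31. A limma fit of this dependence passed 0 members and 0% of all genes at an adjusted p of 0.05. Ppp1r15a and Wfs1 had the smallest unadjusted p of the members in this limma fit, 0.127 and 0.171, and are not typical of the list. That fit also found none of the changes placed in simulated data, so its lack of calls says nothing about fat content. Weeks of feeding and LFD formula cannot be told apart from fat content.

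Other genes of ER protein handling and stress were taken from lists around the pathway, also drawn up with earlier results known, and 151 of 169 listed genes were measured. None passed an adjusted p of 0.05 in limma, and at an unadjusted p under 0.05, 11 were higher and 2 lower in HFD, against 3.30% and 1.51% of all genes. The count of 11 was 1 with each array centred on its median and also 1 without LFD of experiment 2, so nothing is drawn from it. The ERAD machinery outside the members, 22 of 23 genes measured, had a median difference of 0.09. In all 4 experiments 9 of its genes were higher and 3 lower, against 11.0% and 7.43% of all genes. Nothing is drawn from such counts for this list or for those below. Marchf6, an ER ubiquitin ligase, was higher in each experiment, with a mean difference of 0.39 ± 0.12 (SE, n = 4), and its levels were 7.93 to 8.24 in LFD and 8.26 to 8.66 in HFD, which did not overlap. Ngly1, which strips glycans from proteins under degradation, differed by -0.42 ± 0.15, Rnf5, another ligase, by 0.42 ± 0.34 and Aup1 by 0.31 ± 0.22.

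Targets of the integrated stress response, the programme downstream of eIF2α and ATF4, were measured for 30 of 33 genes. Their median difference was 0.07, and 7 were higher and 0 lower in all 4 experiments, against 11.0% and 7.43% of all genes. Psat1, an enzyme of serine synthesis, differed by 0.73 ± 0.31 (SE, n = 4), with differences of 0.65, 0.65, 0.99 and 0.64 in experiments 1 to 4. Mthfd2, a mitochondrial folate enzyme, differed by 0.62 ± 0.38, the growth arrest gene Gadd45a by 0.66 ± 0.27 and the cationic amino acid transporter Slc7a1 by 0.33 ± 0.23. These values stand beside those of the member Asns, whose sign changed between experiments.

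Folding and glycoprotein quality control genes (31 of 35 measured) had a median difference of 0.04. In all 4 experiments 4 were higher and 2 lower, against 11.0% and 7.43% of all genes. Ero1b, which reoxidises disulphide isomerases, differed by 0.50 ± 0.45 (SE, n = 4), the chaperone Hspa13 by 0.44 ± 0.17, and the prolyl isomerases Fkbp2 and Fkbp7 by 0.23 ± 0.38 and -0.41 ± 0.39. Translocation and glycosylation genes (29 of 29) had a median of 0.06, with 3 higher and 2 lower in all 4, against the same shares of all genes. Srprb, a subunit of the signal recognition particle receptor, differed by 0.29 ± 0.11, Stt3b, a catalytic subunit of oligosaccharyltransferase, by 0.26 ± 0.11, the signal peptidase subunit Spcs1 by 0.22 ± 0.16 and the channel subunit Sec61g by -0.17 ± 0.16.

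ER calcium genes (15 of 16) had a median of -0.09, with 7 above and 8 below 0, and 0 were higher and 4 lower in all 4 experiments, against 11.0% and 7.43% of all genes. The calcium release channel Itpr2 differed by -0.35 ± 0.42 (SE, n = 4), Sdf4 by -0.17 ± 0.16, the calcium sensor Stim2 by -0.17 ± 0.28 and the plasma membrane channel Orai1 by -0.16 ± 0.10. Among 15 of 19 stress kinases, proteases and other regulators only Atf6b, the relative of Atf6, kept 1 sign in all 4 experiments, at 0.26 ± 0.15. Among 9 of 14 cytosolic heat shock genes, Dnajb1 was lower in each experiment at -0.39 ± 0.54 and Hspa4 higher at 0.19 ± 0.08.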

How the data were processed

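RNA of 8 ATM pools was measured on arrays, and the authors deposited 1 log2 value per probe set and array, for which the submitters' processing notes list RMA without a version. The array annotation build is not given in the sources used here. Values were analysed as deposited. Probe sets with 1 gene symbol were kept (21218 of 35556), with the brightest per gene (18820 genes). The members and all lists were chosen with earlier results of these data known. Genes named outside the members were up to 4 per list with the largest mean difference among those of 1 sign in all 4 experiments.

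The diets were compared by lmFit and eBayes of limma 3.58.1 under R 4.3.3, without a block, as the study's statistics section names Student's test and mentions no pairing. That section does not describe the array analysis, for which the paper refers to its supplementary methods. P-values were adjusted after Benjamini-Hochberg over all genes, at 0.05. Experiments were compared by limma's F test with diet as covariate, and fat contents with the experiment as block. Labels give the experiment, which pairs the arrays: over genes, the deviations of its LFD and HFD array from their group means correlated at 0.889, 0.357, 0.652 and 0.186 in experiments 1 to 4. Each array is a separate pool, and precision is limited by how few arrays there are. The fits were tested on simulated data with known changes: those of diet and of experiment recovered part of them, and that of fat content recovered none. Promoters came from RefSeq (GRCm38.p6). Alternatives were the block, centring, probe set rules, an intensity trend, Student's t-test, fat contents alone and leaving out arrays or experiment 1.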

Additional observations from a re-analysis of the deposited data

Results flagged for a closer look

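In each diet group of 4 arrays, the gap of the extreme array to its neighbour was set against the range of the group. It was above Dixon's critical value in 4 of 64 groups, and chance marks about 1 in 20. Wfs1 was high in LFD of experiment 4 (0.882 of the range), at 7.85 against 6.15 to 6.35. Canx was low in HFD of experiment 1 (0.85), at 10.09 against 10.38 to 10.44. Edem1 was low in HFD of experiment 1 (0.843), at 8.22 against 8.91 to 9.04. Pdia3 was low in LFD of experiment 1 (0.843), at 9.63 against 9.94 to 10.00. The arrays of experiment 1 are those with the lowest macrophage gene levels, whose part in these values was not tested.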

How the results depend on the processing

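For HFD against LFD, no member passed the adjusted threshold under any alternative run, with or without the experiment as a replicate block, and the median difference of the members stayed above 0, between 0.01 and 0.20 when 1 array was left out. Of 607 alternative differences of single members, 5 moved by 1 SD or more and 30 changed sign, in Asns, Atf4, Atf6, Derl1, Hspa5, Manf, Pdia3, Sdf2l1 and Trib3, and 0 did so among the 12 members with 1 sign in all 4 experiments. Members higher at an unadjusted p under 0.05, 3 as reported, were 6 with a fixed and 7 with a random replicate block, 1 after centring, 1 in the 45% experiments alone and 1 to 8 when 1 array was left out, with 1 without LFD of experiment 1 or 2 or HFD of experiment 3 or 4 and 8 without LFD of experiment 3. Members lower, 2 as reported, were 4 with a random replicate block, 1 with an intensity trend, 0 in the 45% and 1 in the 60% experiments alone, and 1 to 4 when 1 array was left out, with 4 without LFD of experiment 1 and 1 without LFD of experiment 3 or HFD of experiment 1, 3 or 4. Genes of the other lists, 11 higher and 2 lower as reported, were 18 higher with a random replicate block, 5 lower with a fixed one, 1 higher after centring, 6 higher and 1 lower without dim probe sets, 5 higher with an intensity trend, 0 and 0 in the 45% and 17 and 6 in the 60% experiments alone, and 1 to 12 higher and 0 to 5 lower when 1 array was left out. Without experiment 1 they were 5 lower, and also 5 with the replicate block in that setting, which was chosen after seeing the data. Members that differed between experiments, 3 as reported, were 0 without experiment 1, 6 after centring, 6 without dim probe sets, 0 with no diet term and 0 to 7 when 1 array was left out. Members above LFD in all experiments, 8 as reported, were 5 after centring and 8 to 18 when 1 experiment was left out, with 18 without experiment 3. Members below LFD in all experiments, 4 as reported, were 6 after centring, so that the larger count changed sides, and 5 to 6 when 1 experiment was left out. Except where the alternative itself leaves out samples or genes, the cause was not tested. With 4 arrays per diet, differences of the size seen for most members could not be separated from the spread between arrays.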
